A study of Mus musculus with 6 samples.

Results

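Condensin and SET are described here as 7 genes of mouse hematopoietic stem cells: Smc2 and Smc4, the ATPase core of both condensin complexes, Ncaph and Ncapd2 of condensin I, Ncaph2 and Ncapd3 of condensin II, and Set. They were chosen by gene symbol as partners of microcephalin, the product of Mcph1, in chromosome condensation, and all 7 were found among the 11108 genes listed in the expression table. The RNA of 200 stem cells per library was turned into cDNA by Smart-seq2, which copies whole transcripts from few cells, after the cells had been sorted from bone marrow as lineage-negative Sca-1+ c-Kit+ CD34- CD150+ cells. There were 3 libraries from wild-type (WT) mice and 3 from Mcph1-/- mice, all untreated, and the labels give no age, strain, deleted exon or number of animals. Since no label ties libraries to separate mice, p-values here reflect the library-to-library spread alone, and that spread may be technical.

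Condensins are ring-shaped complexes in which a heterodimer of SMC ATPases is closed by a kleisin subunit that carries HEAT-repeat subunits, and they compact chromatin into mitotic chromosomes by extruding loops. Condensin II resides in the nucleus throughout the cell cycle, whereas condensin I reaches chromosomes after the nuclear envelope breaks down. Microcephalin restrains condensin II in interphase, and cells without it condense their chromosomes too early. SET is a histone chaperone and an inhibitor of protein phosphatase 2A (PP2A) that binds microcephalin. Most stem cells in adult marrow are out of cycle, so that transcripts of mitotic factors are usually low in them.

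The 5' flanks of 3 members are shown. Set and Smc2 had higher mean log values in the libraries labelled Mcph1-/-, Smc2 with overlapping groups. Those of Ncaph were nearly equal, with a wide interval. Whether the flanks relate to these levels was not tested. Each sequence is the 250 bases before a RefSeq start (GRCm38.p6, 5' to 3' on the strand of the gene), and capitals mark matches on either strand to CCAAT, to the cell cycle homology element TTTGAA or to the E2F half-site GCGGGAA.
Set, chr2:30066224-30066473, plus strand: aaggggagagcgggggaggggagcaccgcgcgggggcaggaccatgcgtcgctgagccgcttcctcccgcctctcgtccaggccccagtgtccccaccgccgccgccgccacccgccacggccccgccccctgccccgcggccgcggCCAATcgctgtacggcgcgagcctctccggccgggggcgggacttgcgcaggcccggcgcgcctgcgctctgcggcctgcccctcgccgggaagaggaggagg
Smc2, chr4:52438971-52439220, plus strand: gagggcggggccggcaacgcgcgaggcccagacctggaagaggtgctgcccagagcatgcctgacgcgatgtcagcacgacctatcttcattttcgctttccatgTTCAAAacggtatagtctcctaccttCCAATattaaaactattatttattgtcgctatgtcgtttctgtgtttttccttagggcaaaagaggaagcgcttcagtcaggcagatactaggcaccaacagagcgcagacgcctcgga
Ncaph, chr2:127133955-127134204, minus strand: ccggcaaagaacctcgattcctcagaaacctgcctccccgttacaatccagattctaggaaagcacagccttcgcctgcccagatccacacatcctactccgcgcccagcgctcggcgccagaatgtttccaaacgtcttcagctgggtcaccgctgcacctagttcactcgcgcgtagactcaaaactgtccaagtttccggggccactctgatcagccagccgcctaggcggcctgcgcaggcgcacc
The Set flank, whose last bases lie in an annotated first exon, held 1 CCAAT match. A second RefSeq start of Set, upstream, has a window that overlaps annotated exons and is not printed, and it held 1 CCAAT and 1 TTTGAA match. The Smc2 flank held 1 CCAAT match and, upstream of it, 1 match to TTTGAA in the reverse direction, and the Ncaph flank held no match. Among 32851 RefSeq promoter windows of the same length, 33.8% held CCAAT, 16% TTTGAA and 3.82% GCGGGAA on either strand. Windows were found for 6 of the 7 members, the exception being Smc4. The Ncapd2 window, which reaches into the annotated gene, held 3 CCAAT matches and 1 TTTGAA match. Of the 2 Ncapd3 windows 1 held 1 TTTGAA match, and that window lies well inside the annotated gene. The Ncaph2 window held neither, and no window of a member held GCGGGAA. These matches describe letters and not binding.

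Libraries held 8102605 to 8655123 reads on listed genes in WT and 9464810 to 10455908 in Mcph1-/-, and 10274 ± 63.1 and 10665 ± 134 listed genes were detected (SD, n = 3). Mcph1 itself had normalised read counts, that is reads divided by a size factor per library, of 160.5, 341.0 and 34.4 for WT against 427.8, 37.7 and 233.9 for Mcph1-/- (replicates 1 to 3, the order used throughout). The values of both genotypes overlapped. The deleted stretch is not named in the labels, so reads summed over Mcph1 cannot test the genotype, and all directions below rest on the labels. All 10 stem cell markers were listed and summed to 17791 to 21352 in WT and 13475 to 15873 in Mcph1-/-, but Slamf1, which encodes the sorting marker CD150, had 0 reads in WT replicate 1 and 1 read in Mcph1-/- replicate 3. The 7 listed neutrophil markers summed to 58564 to 67847 in WT and 3287 to 18724 in Mcph1-/-, with Elane at 0 in Mcph1-/- replicate 2. Of these 3 passed by limma-trend, S100a8, S100a9 and Ngp, all lower in Mcph1-/-. Camp was lower in every Mcph1-/- library too, without passing by limma-trend. Mpo, Elane and Prtn3 overlapped between the genotypes (log2 fold changes 1.45, -1.58 and -0.37). Elane was highest in Mcph1-/- replicate 3 (8095), and Mpo was high only in WT replicate 1 (5959) and Mcph1-/- replicate 3 (4856). The 9 erythroid markers summed to 4302 to 21482 and 30967 to 39039, with Epor at 0 in WT replicate 2, Gata1 in WT replicate 3 and Hbb-bs in Mcph1-/- replicate 2. Of these 1 passed, Car1, a carbonic anhydrase, higher in Mcph1-/-. The globin genes Hba-a1, Hba-a2 and Hbb-bs went the other way (log2 fold changes -3.40, -3.27 and -5.03). In these 3, every Mcph1-/- library lay below every WT library, and WT replicate 3 was highest. Hbb-bt, the remaining globin gene on the list, overlapped between the genotypes (0.14, SE 1.45). By DESeq2 4 erythroid markers passed, Car1, Klf1 and Blvrb as higher and Hba-a1 as lower. The 6 megakaryocyte markers summed to 1902 to 5033 and 1336 to 2605, with Gp1bb at 0 in WT replicates 1 and 3 and Ppbp in WT replicate 2. Of 8 lymphoid markers 3 were listed (878 to 1829 and 374 to 2472), and of 6 monocyte markers 2 (7765 to 12578 and 4436 to 4634). The part of any of these cells in the values of the members was not tested. In bulk libraries, fewer cells of a type and less RNA per cell cannot be told apart.

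The comparison asked whether transcripts of condensin and SET differ between the genotypes. No member passed the threshold of 0.05 after adjustment over the 10846 genes tested (limma-trend on log2 of the value plus 1, Benjamini-Hochberg), where 0.0369% of all genes passed. At an unadjusted p under 0.05 there were 2 members, Set and Smc4, against 7.71% of all genes. Only Set, 1 member, remained under 0.05 with the replicate number as a block or without WT replicate 1, Mcph1-/- replicate 1 or Mcph1-/- replicate 2. In both Set and Smc4 every library labelled Mcph1-/- lay above every WT library, as it did for 7.4% of all genes tested. No member lay below in every Mcph1-/- library, against 6.8% of all genes. Log2 fold changes, taken as Mcph1-/- over WT, were above 0 for 4 of 7 members, against 53.8% of all genes, and the median of the members was 0.53 against 0.08. On the recovered reads 0 members passed by edgeR's quasi-likelihood test, which passed 0.0184% of all genes, and 0 by limma-voom, which passed 0.00922%. DESeq2 gave an adjusted p to 5369 genes and passed 4.36% of them, and of the 5 members among them it passed 1, Set.

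Set was the most abundant member and the steadiest. In replicates 1 to 3 it had normalised read counts of 5148, 4276 and 4073 for WT against 5880, 7055 and 6521 for Mcph1-/-. The groups did not overlap, and WT replicate 1 came closest to the Mcph1-/- libraries. The WT mean was 4499 ± 571 and the Mcph1-/- mean 6486 ± 588 (SD, n = 3). On the log2 scale Set differed by 0.53 (SE 0.16, 95% interval 0.16 to 0.90; limma adjusted p = 0.603). DESeq2 on the recovered reads gave the same log2 fold change, 0.53, with an adjusted p of 0.017, and edgeR gave 0.56 with an adjusted p of 0.778. The SD between libraries within a genotype was 0.16 on the log2 scale, against a median of 0.24 for the 504 genes of similar level. The gene (ENSMUSG00000054766) is on chromosome 2 between 30057378 and 30072577, plus strand (mm10).

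Set has near-identical copies elsewhere in the genome, so its reads are uncertain. Of 6 other genes with a transcript at least 95% identical to Set over 150 bases or more, 1 was listed, the transcribed processed pseudogene Gm9531 on chromosome 9 from 81677598 to 81678677, identical to the Set transcript (100%) over 668 bases. Gm9531, examined after its values were seen, had normalised read counts of 426, 464 and 531 in WT and 1593, 1485 and 1405 in Mcph1-/-. All libraries labelled Mcph1-/- lay far above the WT libraries, by 1.66 on the log2 scale (SE 0.27; limma adjusted p = 0.277). DESeq2 put the difference at 1.66 too, and there it passed (adjusted p = 5.2e-10). Its share of the reads assigned to Set and Gm9531 together was 7.65%, 9.78% and 11.5% in WT and 21.3%, 17.4% and 17.7% in Mcph1-/-. Set and Gm9531 together summed to 4973 ± 525 for WT against 7980 ± 536 for Mcph1-/- (SD, n = 3), with mean log2 values 0.69 apart. The sources used here do not state how reads that match several places were assigned.

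**Figure D1:**
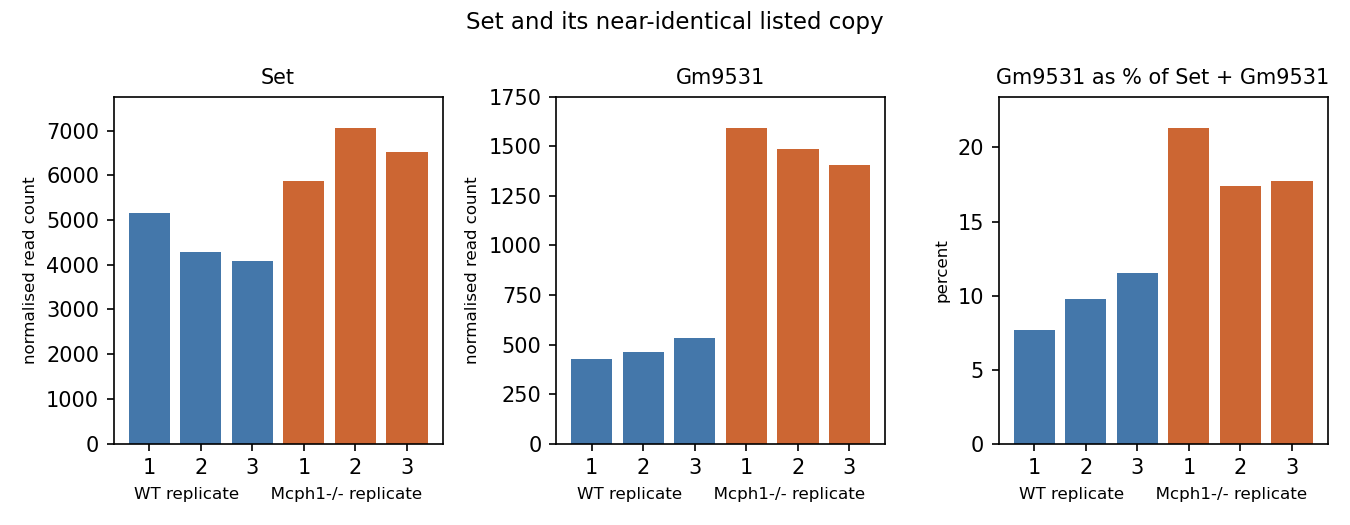
Bars give the normalised read count of Set (left) and of its copy Gm9531 (middle) in each library, and the percent of their joint count that Gm9531 takes (right), for 3 WT (blue) and 3 Mcph1-/- (orange) libraries. Gm9531 took 7.65% to 11.5% in WT and 17.4% to 21.3% in Mcph1-/-.

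The SMC core genes had higher means in Mcph1-/-, and in Smc2 the groups overlapped. Smc4, the SMC4 ATPase, had normalised read counts of 439, 879 and 1047 in WT and 2168, 1506 and 1164 in Mcph1-/-. The groups stood apart by a narrow margin, since WT replicate 3 and Mcph1-/- replicate 3 differed by little. The means were 788 ± 314 and 1613 ± 511 (SD, n = 3), and the log2 difference was 1.08 (SE 0.40, 95% interval 0.17 to 1.99; limma adjusted p = 0.626), or 0.70 without WT replicate 1. Smc2, its partner ATPase, had 888, 254 and 1462 in WT and 1216, 1637 and 1521 in Mcph1-/-. WT replicate 3 lay inside the range of Mcph1-/-, and WT replicate 2 was the low value. The log2 fold change of Smc2 was 1.06 (SE 0.58, 95% interval -0.27 to 2.40; limma adjusted p = 0.666), and 0.34 without WT replicate 2. The spread of Smc2 between libraries was unequal, with a coefficient of variation of 69.6% in WT and 14.9% in Mcph1-/-, where counting alone gives about 2.82%. Smc2 lies on chromosome 4 from 52439243 to 52488260 and Smc4 on chromosome 3 from 69004738 to 69034623, both on the plus strand (mm10).

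**Figure D2:**
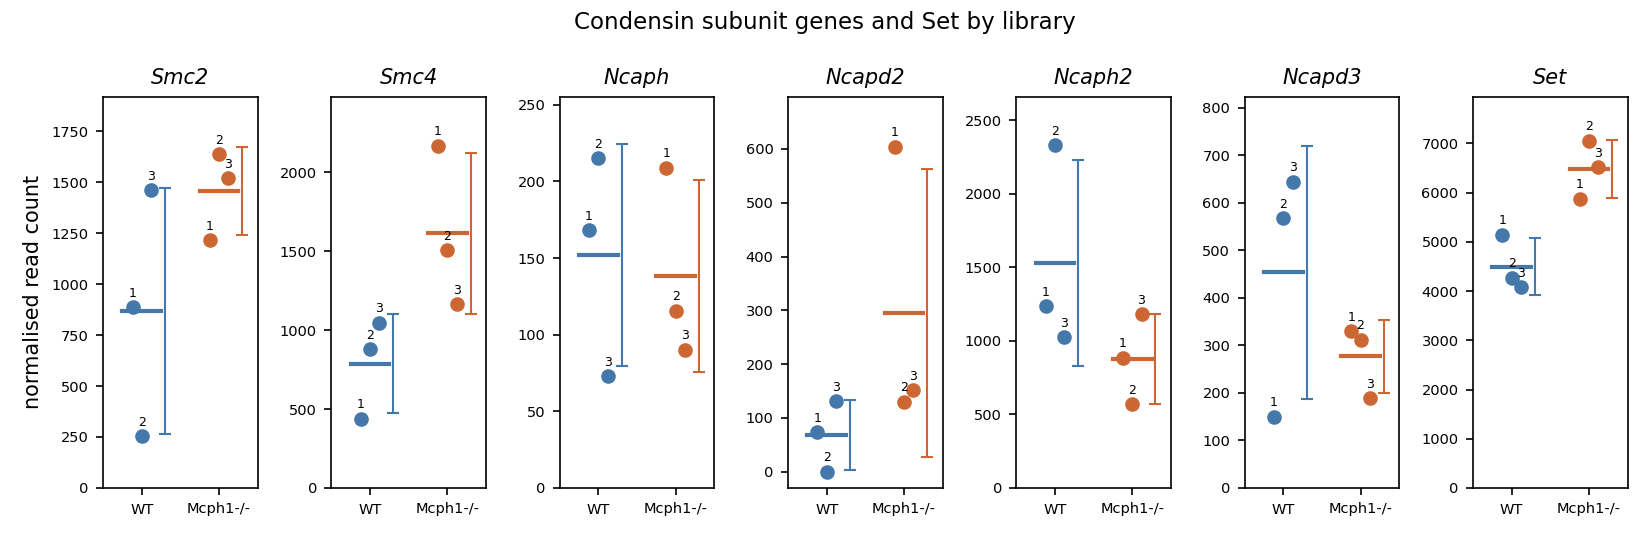
Each panel shows a member's normalised read count on a linear axis of its own, with 1 point per library numbered by replicate, a bar at the mean and the SD beside it, for WT (blue) and Mcph1-/- (orange). Groups are apart for Smc4 and Set and overlap for the other members.

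The 2 measured subunits of condensin I had the lowest means in WT, while in Mcph1-/- Ncapd2 had a mean of 295, level with Ncapd3 at 277. Ncapd2, the HEAT-repeat subunit of condensin I, had normalised read counts of 73.7, 0 and 131 in WT and 604, 130 and 152 in Mcph1-/-. WT replicate 2 had no read, which allows up to 3.09 at a limit of 3 reads, and WT replicate 3 lay level with Mcph1-/- replicate 2. The log2 fold change was 3.42 (SE 1.96, 95% interval -1.07 to 7.92; limma adjusted p = 0.673), against 1.21 without WT replicate 2 and a ratio of means of 4.34. Ncaph, the kleisin of condensin I, had 168, 215 and 72.9 in WT and 209, 116 and 90.2 in Mcph1-/-. The ranges of the genotypes were nearly the same, and the log2 fold change was -0.09 (SE 0.88, 95% interval -2.12 to 1.94; limma adjusted p = 0.987). It was 0.05, 0.23 and 0.17 without WT replicate 1, WT replicate 2 or Mcph1-/- replicate 3. An interval of this width neither shows a difference in Ncaph nor that its levels were alike. Ncaph lies on chromosome 2 from 127103809 to 127133954 and Ncapd2 on chromosome 6 from 125168007 to 125191701, both on the minus strand (mm10). The exons of Ncapd2 share 237 bases with Scarna10 and 235 with Gm28967 on the same strand, so that its count is uncertain there.

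The measured subunits of condensin II, the complex that microcephalin restrains, had lower means in Mcph1-/-, with overlapping groups. Ncaph2, the kleisin of condensin II, had normalised read counts of 1235, 2332 and 1025 in WT and 885, 569 and 1182 in Mcph1-/-. WT replicate 2 was the high value, and WT replicate 3 lay below Mcph1-/- replicate 3. The log2 fold change was -0.77 (SE 0.40, 95% interval -1.69 to 0.15; limma adjusted p = 0.663), and -0.42 without WT replicate 2. The exons of Ncaph2, on chromosome 15 between 89355719 and 89372826, plus strand (mm10), share 829 bases with Sco2 and 535 with Tymp on the other strand, so that its count is uncertain where strand was not used. The log2 fold changes of these neighbours were -0.48 for Sco2 (SE 0.59) and 0.64 for Tymp (SE 0.95). Ncapd3, the HEAT-repeat subunit of condensin II, had 150, 568 and 645 in WT and 330, 312 and 189 in Mcph1-/-. WT replicate 1 was the lowest of the 6 libraries and the other WT libraries were the highest. The log2 fold change of Ncapd3 was -0.50 (SE 0.67, 95% interval -2.04 to 1.05; limma adjusted p = 0.853), with -1.17 without WT replicate 1 and -0.12 without WT replicate 3. Ncapd3 is on chromosome 9 between 27030175 and 27095315, plus strand (mm10). The remaining subunits of both complexes, Ncapg and Ncapg2, have no values here.

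**Figure D3:**
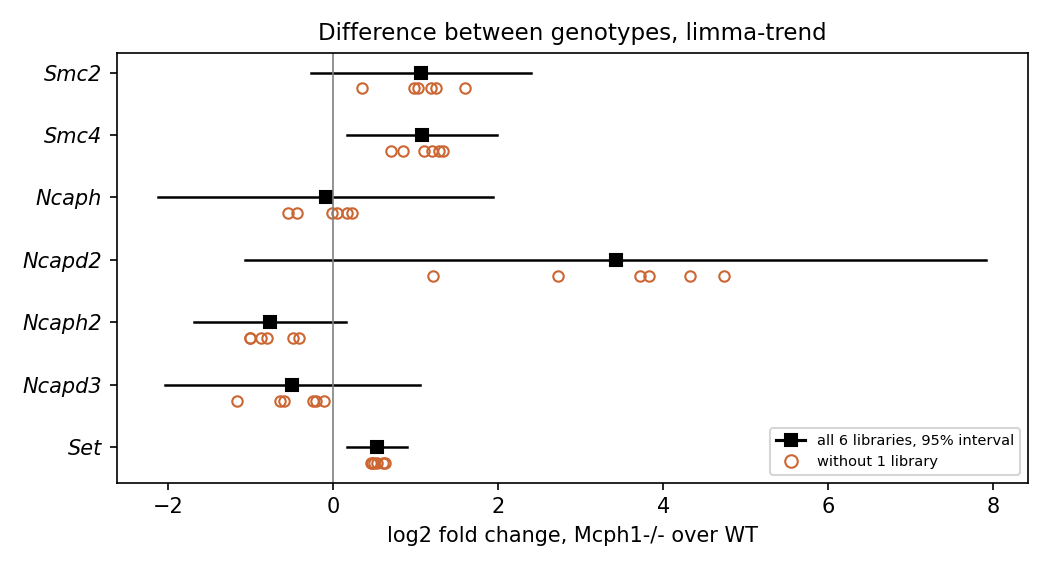
Squares give the log2 fold change of Mcph1-/- over WT from limma-trend over 6 libraries, with lines for the 95% interval, and open circles the value with 1 library left out. The intervals of Smc4 and Set lie above 0, those of the other members include 0, and Ncaph changes sign when single libraries are left out.

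Levels were compared between genes per kilobase of exon, from the union of annotated exons, which counts every annotated isoform as if used. Set stood apart, at 1105 ± 140 normalised reads per kilobase in WT and 1594 ± 145 in Mcph1-/- (SD, n = 3), above every other member in every library. In WT the order went on with Ncaph2 at 365 ± 167, Smc2 at 158 ± 110, Smc4 at 151 ± 60.2, Ncapd3 at 57.5 ± 33.8, Ncaph at 35.3 ± 16.8 and Ncapd2 at 10.9 ± 10.4. In WT, Smc4 (lowest library 84.3) stood just above Ncapd3 (highest library 81.7), and the other neighbours from Ncaph2 downward overlapped in range. In Mcph1-/- the order was Smc4 at 310 ± 98.0, Smc2 at 266 ± 39.7, Ncaph2 at 209 ± 73.0, Ncapd2 at 47.1 ± 42.7, Ncapd3 at 35.1 ± 9.71 and Ncaph at 32.1 ± 14.5. There Smc4, Smc2 and Ncaph2 overlapped one another in range, as did Ncapd2, Ncapd3 and Ncaph, and every value of the first 3 genes lay above every value of the last 3.

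Within a library the kleisin of condensin I was always below that of condensin II. The ratio of Ncaph to Ncaph2 per kilobase was 0.133, 0.0900 and 0.0693 in WT and 0.230, 0.198 and 0.0744 in Mcph1-/-, with overlapping groups. For the HEAT-repeat subunits, the ratio of Ncapd2 to Ncapd3 was 0.620, 0 and 0.255 in WT and 2.30, 0.527 and 1.01 in Mcph1-/-. WT replicate 1 exceeded Mcph1-/- replicate 2 in this ratio, so these groups overlapped too. The ratio of Smc4 to Smc2, whose products pair in equal number, was 0.520, 3.63 and 0.753 in WT and 1.87, 0.968 and 0.805 in Mcph1-/-. WT replicate 2, in which Smc2 was low, had the highest of these ratios.

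**Figure D4:**
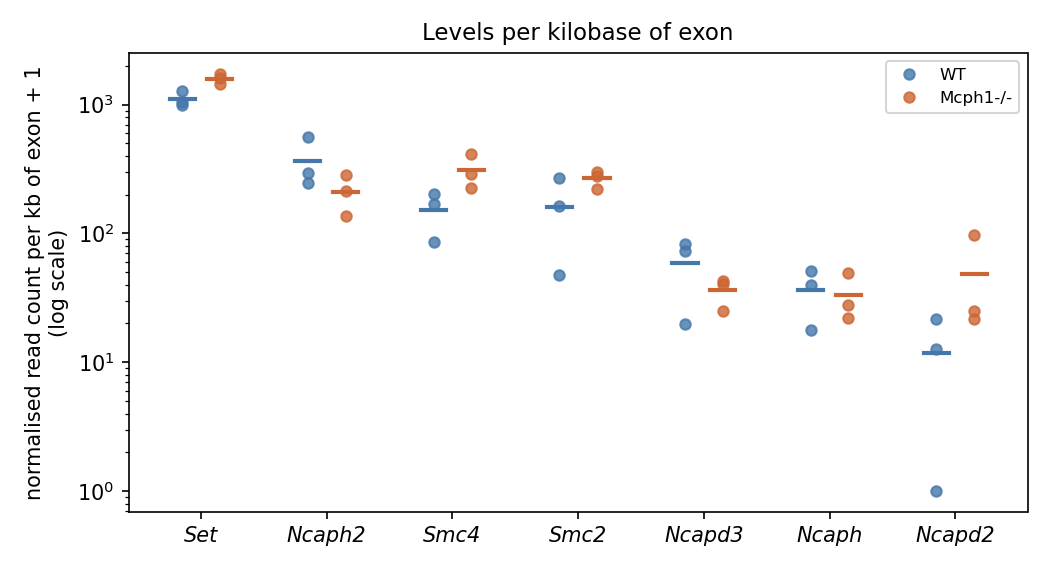
Points give normalised reads per kilobase of exon plus 1, on a log axis, in 3 WT (blue) and 3 Mcph1-/- (orange) libraries, with a bar at the mean. Genes are ordered by their mean over both genotypes, and Set lies above all condensin subunits.

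The members did not share 1 pattern across the libraries. The likeness of a pair was measured as the root mean square difference of their log2 values over the 6 libraries after centring each gene on its mean. The measure is not scaled by spread. A low value can thus mean a like pattern or little variation in the genes, and Set varied least of the members. Among the 21 pairs of members it ran from 0.64, for Smc4 and Set, to 3.40, for Ncapd2 and Ncaph2. Smc2 and Smc4, which form a dimer as proteins, stood at 0.93, and the kleisins Ncaph and Ncaph2 at 0.67. Genes outside the group came closer, as is easily found among 8803 candidates and 6 libraries. The nearest to Set were Ldha, lactate dehydrogenase A (0.062), Eif5a, a translation factor (0.076), and Pold4, a subunit of DNA polymerase delta (0.078). Among the nearest to Smc4 was Samd9l (0.13). Nearest to Smc2 were Nfx1 (0.14), Tyms, thymidylate synthase (0.17), and Tango2 (0.19), all of them low in WT replicate 2. For Ncaph they were Prr14l (0.13), Ube2e3 (0.13) and Oxa1l (0.16), for Ncaph2 Sec23ip (0.13), Ccdc28b (0.13) and Lat (0.17), and for Ncapd3 Zfp566 (0.12), Atp5l (0.16) and Rcn3 (0.20). For Ncapd2 they were Ncln (0.41), Bckdhb (0.55) and Zfp715 (0.56), which like Ncapd2 had 0 reads in WT replicate 2.

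The 18 partners of condensin are regulators, kinases and chromosome scaffold genes, Mcph1 itself among them. Of these 15 had a log2 fold change above 0 (53.8% of all genes) and 3 below. The median was 0.77 against 0.08 over all genes. By limma-trend 0 passed and 3 had an unadjusted p under 0.05 (7.71% of all genes), and edgeR and limma-voom passed 0. DESeq2 passed 1 of the 12 to which it gave an adjusted p, Ccnb1 (4.36% of all genes given one). Ccnb1, cyclin B1 of the mitotic kinase that phosphorylates condensin, had normalised read counts of 92.2, 128 and 250 in WT and 420, 784 and 464 in Mcph1-/-, without overlap (log2 fold change 1.89, SE 0.61; limma adjusted p = 0.626). Cdk1, the kinase itself, overlapped between the genotypes (0.30, SE 0.30). Top2a, the topoisomerase that acts with condensin on mitotic chromosomes, had 197, 438 and 466 in WT and 795, 790 and 434 in Mcph1-/-, with overlap (0.92, SE 0.49). Lower in every Mcph1-/- library were Akap8l (-0.96, SE 0.34) and Phf8, a histone demethylase (-3.81, SE 1.79), and Phf8 had 0 reads in Mcph1-/- replicate 3 and stood at -2.36 without it. Cdk1 and Top2a were named after their values were seen.

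Of 16 partners of SET, 15 were tested, Setbp1 having no value here. Of these 9 had a log2 fold change above 0 (53.8% of all genes) and 6 below, with a median of 0.40. By limma-trend 0 passed and 4 had an unadjusted p under 0.05 (7.71% of all genes), and edgeR and limma-voom passed 0. DESeq2 passed 3 of the 13 to which it gave an adjusted p, Ppp2r1b, Hmgb2 and Nme1 (4.36% of all genes given one). Ppp2r1b, the beta scaffold subunit of PP2A, had normalised read counts of 274, 260 and 353 in WT and 1098, 1235 and 1001 in Mcph1-/-. All Mcph1-/- libraries lay well above all WT libraries, by 1.91 on the log2 scale (SE 0.33; limma adjusted p = 0.320; DESeq2 adjusted p = 2.3e-08). Ppp2r1b shares 1429 exonic bases with Sik2 on the other strand and is uncertain. The other scaffold gene, Ppp2r1a, differed by -0.19 (SE 0.39), and the catalytic subunits Ppp2ca and Ppp2cb had 0.80 (SE 0.61) and -1.23 (SE 0.90), all with overlapping groups. These 3 were named after their values were seen.

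Hmgb2, a DNA-bending protein of the SET complex, had 836, 796 and 814 in WT and 1495, 1281 and 1351 in Mcph1-/-, without overlap (log2 fold change 0.75, SE 0.23; limma adjusted p = 0.617; DESeq2 adjusted p = 0.011). Nme1, a nucleoside diphosphate kinase of the same complex, had 7090, 7886 and 5749 against 10299, 8638 and 10275 (0.50, SE 0.16; limma adjusted p = 0.626; DESeq2 adjusted p = 0.038), and it shares exons with a read-through gene, Gm20390. Sgo1, shugoshin, which protects centromeric cohesion together with PP2A, had 45.5, 6.18 and 18.2 against 372, 121 and 180 (3.44, SE 1.30; limma adjusted p = 0.626). The groups of all 3 genes stood apart.

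Other SMC complexes showed a median near that of all genes. Of 17 genes of cohesin, its regulators, SMC5/6 and SMCHD1, 10 had a log2 fold change above 0 (53.8% of all genes) and 7 below. The median was 0.08 against 0.08 over all genes. By limma-trend 0 passed and 1 had an unadjusted p under 0.05, a share near the 7.71% of all genes, and edgeR, limma-voom and DESeq2 passed 0. The gene with the smallest p was Nsmce3 of the SMC5/6 complex (-0.91, SE 0.38), at -0.60 without WT replicate 2. The others with the smallest p were Smchd1, a chromatin silencing factor (0.76, SE 0.38, and 0.48 without WT replicate 2), the cohesin subunit gene Stag1 (-1.22, SE 0.72, and -0.65 without WT replicate 3) and the cohesin regulator Pds5b (3.26, SE 1.95), which had 0 reads in WT replicate 3 and a log2 fold change of 0.93 without it. Whether these genes differed from condensin was not tested.

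Transcripts of dividing cells were measured beside these values, and 4 of them, Ccnb1, Cdk1, Mki67 and Top2a, are also on the list of condensin partners. Of 22 such genes 21 had a log2 fold change above 0 (53.8% of all genes), with a median of 1.35. In 12 every Mcph1-/- library lay above every WT library (7.4% of all genes). By limma-trend 0 passed and 9 had an unadjusted p under 0.05 (7.71% of all genes), and edgeR and limma-voom passed 0. DESeq2 passed 7 of the 19 to which it gave an adjusted p (4.36% of all genes given one). Their summed normalised read counts ran from 10332 to 11548 in WT and from 24160 to 25459 in Mcph1-/-. Those with the smallest p were Ube2c, a ubiquitin-conjugating enzyme of mitotic exit (2.40, SE 0.39), Mcm6 of the replicative helicase (1.04, SE 0.22) and Cenpa, the centromeric histone (1.70, SE 0.39). The summed counts of the 6 condensin genes were 2954, 4249 and 4382 in WT and 5412, 4270 and 4299 in Mcph1-/-, with overlapping groups. The part of dividing cells in the values of the members was not tested.

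**Figure D5:**
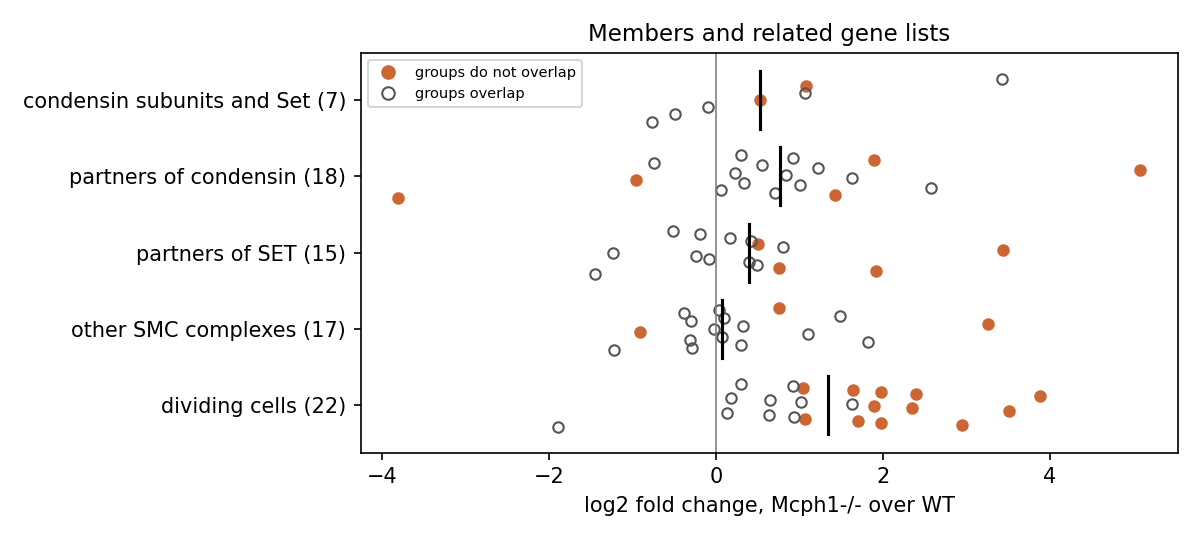
Each point is the log2 fold change of 1 gene, Mcph1-/- over WT, by list, with the number of genes in brackets and a bar at the median. Filled orange points are genes whose groups do not overlap, and the medians are 0.53 for condensin and Set, 0.77 and 0.40 for their partners, 0.08 for other SMC complexes and 1.35 for dividing cells.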

How the data were processed

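The authors deposited a table of 11108 genes and 6 libraries whose values are a signal: reads per gene over a size factor of each library. This was read off the values, of which 100% came out as whole reads within 0.001 reads, and median-of-ratios factors computed from those reads equal the ones in the table. The submitters' processing notes name HISAT2, featureCounts, Trim Galore 0.6.6, DESeq2 and the build mm10, without their roles. Strand setting and annotation release are not stated in the sources used. Per the labels' protocols, paired 150-bp reads were sequenced on an Illumina HiSeq. Every listed gene has reads in at least 4 libraries, so a gene read in only 1 genotype would not be listed.

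Genes with a mean of at least 10 (10846) were tested with limma-trend (limma 3.58.1, R 4.3.3) over all 6 libraries, on log2(value + 1), in a model of genotype alone. Genes passed at a Benjamini-Hochberg adjusted p under 0.05. A log2 fold change on this scale understates that of low genes, and a library at 0 inflates it. edgeR 4.0.16 quasi-likelihood, DESeq2 1.42.0 and limma-voom on recovered reads, other pseudocounts, filters and scaling, a replicate block and leaving out each library were alternatives. The limma-trend and edgeR fits were tested on simulated reads. Genes named were all members, up to 4 genes with the smallest p per partner list (3 for dividing cells), the 3 genes most like each member, and Mcph1, and others are marked as named after their values were seen. A few genes that this rule names are not reported here. The members and lists were chosen with earlier results of these data known. Positions and exon lengths come from GENCODE vM21 (mm10), promoter windows from RefSeq (GRCm38.p6), and copies of members from blastn against GENCODE transcripts. A gene at 0 reads allows up to 3 reads, a limit that covers counting error only, as reads carry no molecular identifiers.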

Additional observations from a re-analysis of the deposited data

How the results depend on the processing

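Over all genes limma-trend passed 4, edgeR 2, DESeq2 234 and limma-voom 1, and 1 to 4 passed when each library was left out. Of the members 0 passed in each of these fits except by DESeq2, where 1 passed, Set, and leaving out any 1 library also passed 0. With the replicate number as a block, 3 genes and 0 members passed. No label says whether libraries of the same number are a pair. Deviations from the group means correlated at -0.01, 0.02 and -0.03 between libraries of the same number, and not every library correlated best with its own number. Values this low cannot tell whether the libraries were paired. Over 105 alternative fits of the 7 members, 3 changed sign, all of Ncaph, which ran from -0.55 to 0.23 when 1 library was left out. The fits with other filters or the replicate block leave a log2 fold change as it was, so those could not change sign. Mcph1 ran from -0.58 to 1.34. Leaving out 1 library gave 0.34 to 1.60 for Smc2, 0.70 to 1.33 for Smc4, 1.21 to 4.73 for Ncapd2 and 0.46 to 0.63 for Set. With 3 libraries per genotype and reads from 200 cells each, the intervals of Smc2, Ncaph, Ncapd2, Ncaph2 and Ncapd3 include 0. These intervals cannot tell a difference from none, and those of the low-count members Ncaph and Ncapd2 are the widest.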

Other observations

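Of the 7 members, 4 share a divergent start, at most 1000 bases from their own, with a listed gene on the other strand, and their values are given beside those of the members. Ift80, an intraflagellar transport gene that starts 168 bases from Smc4, had normalised read counts of 23.9, 74.2 and 4.05 in WT and 243, 32.0 and 0 in Mcph1-/-, with a log2 fold change of -0.08 (SE 2.29) where that of Smc4 was 1.08. Mrpl51, of the mitochondrial ribosome, starts 100 bases from Ncapd2 and had 1073, 2212 and 1672 in WT and 1811, 1833 and 2096 in Mcph1-/- (0.27, SE 0.29). Lmf2, which starts 60 bases from Ncaph2, had -1.26 (SE 1.15), and Vps26b, which starts 110 bases from Ncapd3, had 0.43 (SE 0.93). None of the 4 passed by limma-trend, and all overlapped between the genotypes. These genes were chosen for their position after the values of the members were seen.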
